A study of Mus musculus with 14 samples.

Results

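CD24highCD49fmed luminal cells and Thy-1+CD24medCD49fhigh basal cells of the mouse mammary gland were compared on 6 of the 14 Affymetrix mouse genome arrays of the series, 3 arrays for each population, chosen by the population named in their titles. The study sorted mammary epithelium into 5 populations to ask which surface antigens mark cells that regrow a gland, and its text treats CD24highCD49fmed cells as luminal progenitors and Thy-1+CD24medCD49fhigh cells as the basal cells that engraft on transplantation. Both groups came from untreated virgin female C57BL/6 mice of 6 to 8 weeks whose glands were digested with collagenase, hyaluronidase, dispase and trypsin. Antibodies to the sort antigens CD24, CD49f and Thy-1, and to the blood, endothelial and erythroid antigens CD45, CD31 and Ter119, were applied before a double sort, and total RNA went through a 2-cycle labelling. Nothing in the labels ties a replicate to its own mouse or pool, so the p-values measure the spread between these arrays, which may be technical. CD24, CD49f and Thy-1 protein defined the gates, so Thy1 RNA is a check on the sort. Of the 3 genes only Thy1 had a deposited probe set with 1 symbol, so the CD24 and CD49f genes were not analysed here.

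The mammary duct has an inner luminal layer, which holds hormone-sensing cells and the progenitors of milk-secreting alveoli, and an outer basal layer of contractile myoepithelial cells that lie on a basement membrane. Luminal cells carry simple epithelial keratins and seal the lumen with claudins and occludin. Basal cells carry keratins 5 and 14, smooth muscle proteins and the transcription factor p63, and transplantable activity is generally recovered from the basal fraction. The value of a probe set is its log2 signal minus its mean over the 14 arrays, so 0 is that mean, and absolute levels cannot be compared between genes. A difference is always the CD24highCD49fmed mean minus the Thy-1+CD24medCD49fhigh mean on the log2 scale.

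The whole table was shifted down in Thy-1+CD24medCD49fhigh replicates 1 and 3. Array medians over 7190 rows (6044 named genes and single probe sets without a unique symbol) were 0.28, 0.23 and 0.26 in CD24highCD49fmed replicates 1 to 3 and -0.74, 0.08 and -0.51 in Thy-1+CD24medCD49fhigh replicates 1 to 3. In the other basal and luminal populations they ran from -0.15 (Thy-1-CD24medCD49fhigh replicate 2) to 0.18 (CD24medCD49fmed replicate 2). The shift was thus not one between luminal and basal arrays in general. The median difference was 0.78, and 0.13 once each array was centred on its own median. limma called 919 rows (12.8%) higher and 423 (5.88%) lower in CD24highCD49fmed cells at an adjusted p under 0.05, against 272 (3.78%) higher and 880 (12.2%) lower after centring and 633 higher and 909 lower after quantile normalization. The larger share of calls therefore lay on the luminal side as deposited and on the basal side after centring. Of the calls, 272 higher and 413 lower rows passed under both scalings, and 0 called rows changed sign (5.74% of rows for the lower direction and 3.78% for the higher). The 3 arrays of a group lay wholly above those of the other in 38.2% of rows for CD24highCD49fmed and 16.3% for Thy-1+CD24medCD49fhigh, so groups that do not overlap are common here. Each difference below is given as deposited, with the centred value beside it.

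The 3 CD24highCD49fmed arrays were close to each other (Pearson r over all rows 0.865 to 0.925), and the 3 Thy-1+CD24medCD49fhigh arrays were not (r = 0.000, 0.241 and -0.186). The median over rows of the SD between replicates was 0.213 in the first group and 0.924 in the second, and the second was the wider for 92.4% of rows. Leaving out Thy-1+CD24medCD49fhigh replicate 2 gave 2924 higher and 824 lower calls. Leaving out CD24highCD49fmed replicate 1, 2 or 3 left 98, 207 or 194 higher and 91, 166 or 180 lower calls. Because these are bulk samples, fewer cells of a type and less RNA per cell cannot be told apart.

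Aldh1a1 gave the largest difference of the 4 markers chosen for this comparison. It encodes a retinaldehyde dehydrogenase, which makes retinoic acid. Its values were -2.41, -2.40 and -2.17 in CD24highCD49fmed arrays and 0.73, 2.62 and 2.34 in Thy-1+CD24medCD49fhigh arrays. Every luminal array lay below every basal array, and the difference was -4.22 (SE 0.58, 18.7-fold lower, limma adjusted p = 0.000865), or -4.87 with arrays centred (adjusted p = 0.000728). It passed in each of the 6 fits that left out 1 array.

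Thy1, the antigen of the basal gate, was -1.19, -0.93 and -0.74 in CD24highCD49fmed arrays and 2.00, -0.07 and 3.03 in Thy-1+CD24medCD49fhigh arrays. Replicate 2 of the Thy-1+ cells thus held about the 14-array mean of Thy1 RNA, although it still lay above the luminal arrays. The difference was -2.61 (SE 0.69, adjusted p = 0.024), -3.25 after centring (adjusted p = 0.0293) and -3.47 without that replicate (adjusted p = 0.00662). Leaving out CD24highCD49fmed replicate 1 or 2 or Thy-1+CD24medCD49fhigh replicate 1 or 3 ended the call (adjusted p = 0.137, 0.0596, 0.0795 and 0.0729).

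Rarres2, which encodes the secreted chemoattractant chemerin, followed the same arrays as Thy1. It was -0.86, -0.80 and -0.83 in CD24highCD49fmed arrays and 2.00, 0.20 and 2.04 in Thy-1+CD24medCD49fhigh arrays, so that replicate 2 was again the lowest basal array. The groups did not overlap, and the difference was -2.24 (SE 0.58, adjusted p = 0.0226), -2.89 after centring (adjusted p = 0.0208) and -2.85 without that replicate (adjusted p = 0.00639). Leaving out any of the other 5 arrays ended the call (adjusted p 0.0514 to 0.13).

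Kit, the receptor for stem cell factor and a marker of luminal progenitors, ran the other way. It was 1.70, 2.34 and 1.60 in CD24highCD49fmed arrays against -0.80, -1.58 and -0.90 in Thy-1+CD24medCD49fhigh arrays. All luminal arrays were above all basal ones, by 2.97 (SE 0.52, 7.85-fold, adjusted p = 0.00294) or 2.32 after centring (adjusted p = 0.018), and the call held in each of the 6 fits without 1 array.

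**Figure D1:**
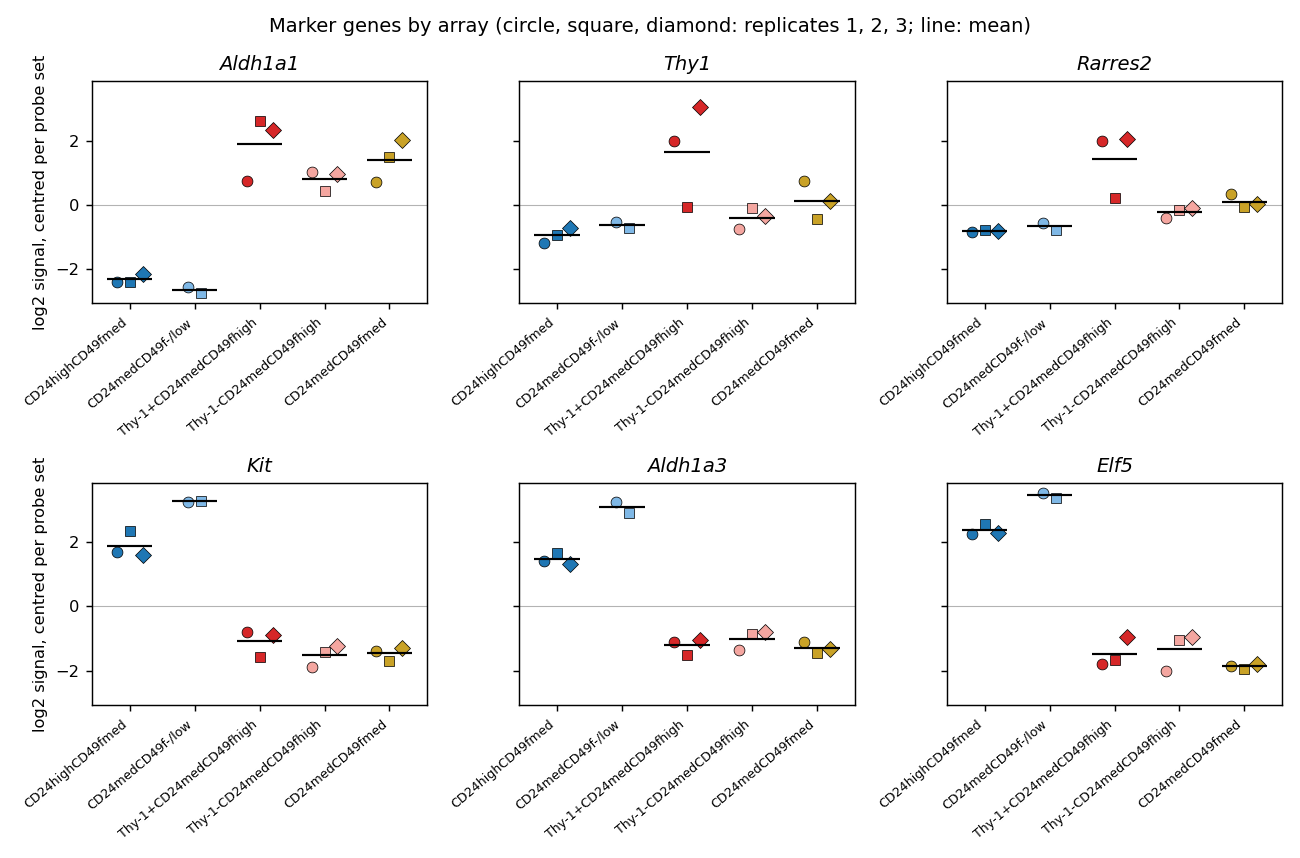
Log2 signal centred per probe set of 6 genes in the 14 arrays, one point per array with the population mean as a line and the replicate shown by the symbol. Aldh1a1 and Kit separate luminal from basal arrays, Thy1 and Rarres2 are high in Thy-1+CD24medCD49fhigh replicates 1 and 3 (2.00 to 3.03) and not in replicate 2, and Kit, Aldh1a3 and Elf5 are highest in CD24medCD49f-/low arrays.

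The keratins and contractile proteins of myoepithelium were lower in CD24highCD49fmed cells nearly throughout. Of 22 listed genes 20 were measured, 16 were called lower and 0 higher, with a median difference of -3.32 against 0.78 over all rows. After centring 17 were lower, with a median of -3.97 against 0.13. Over all rows 5.88% were called lower as deposited and 12.2% after centring.

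Krt17, a keratin of basal and stressed epithelium, was -4.05, -3.58 and -2.67 in the luminal arrays and 1.52, 2.63 and 0.51 in the basal arrays, a difference of -4.99 (SE 0.62, adjusted p = 0.00049). Krt14, partner of keratin 5 in the basal filament, was -2.40, -2.75 and -2.13 against 0.35, 1.74 and 1.94, a difference of -3.77 (SE 0.56, adjusted p = 0.00139). Neither gene overlapped between groups, and both stayed lower after centring (-5.64 and -4.42). Krt14 had 3 probe sets, which differed in size from -5.12 to -1.50 but not in direction.

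Vim, the intermediate filament of mesenchymal and myoepithelial cells, had the smallest spread of this set among the basal arrays, at -3.09, -3.33 and -3.21 in luminal arrays and 2.05, 1.33 and 1.55 in basal arrays (difference -4.85, SE 0.50, adjusted p = 0.000164). Myl9, the regulatory light chain of smooth muscle myosin, differed by -4.93 (SE 0.53, adjusted p = 0.000173), with 2.22, 1.94 and 1.22 in the basal arrays. Actg2, the enteric smooth muscle actin, differed by -4.29 (SE 0.78, adjusted p = 0.00398) but ranged over 0.88, 2.87 and -1.13 in the basal arrays. Among the Thy-1+ arrays, replicate 3 was the lowest for Actg2, Tagln (1.09, 1.80 and -0.66) and Myh11 (1.80, 1.26 and 0.37).

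Acta2, the smooth muscle actin used to identify myoepithelium, was -2.11, -2.07 and -1.69 in luminal arrays and 0.28, 1.56 and -0.21 in basal arrays. The groups did not overlap, and the difference was -2.51 (SE 0.56, adjusted p = 0.0113), or -3.15 after centring. It was not called without CD24highCD49fmed replicate 1 or 2 (adjusted p = 0.0933 and 0.0576), and its 3 probe sets ran from -4.78 to -1.13. The 4 measured members without a call were Lmod1 (-1.39), Des (-1.09), Smtn (-0.57) and the inducible keratin Krt6a (1.21).

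**Figure D2:**
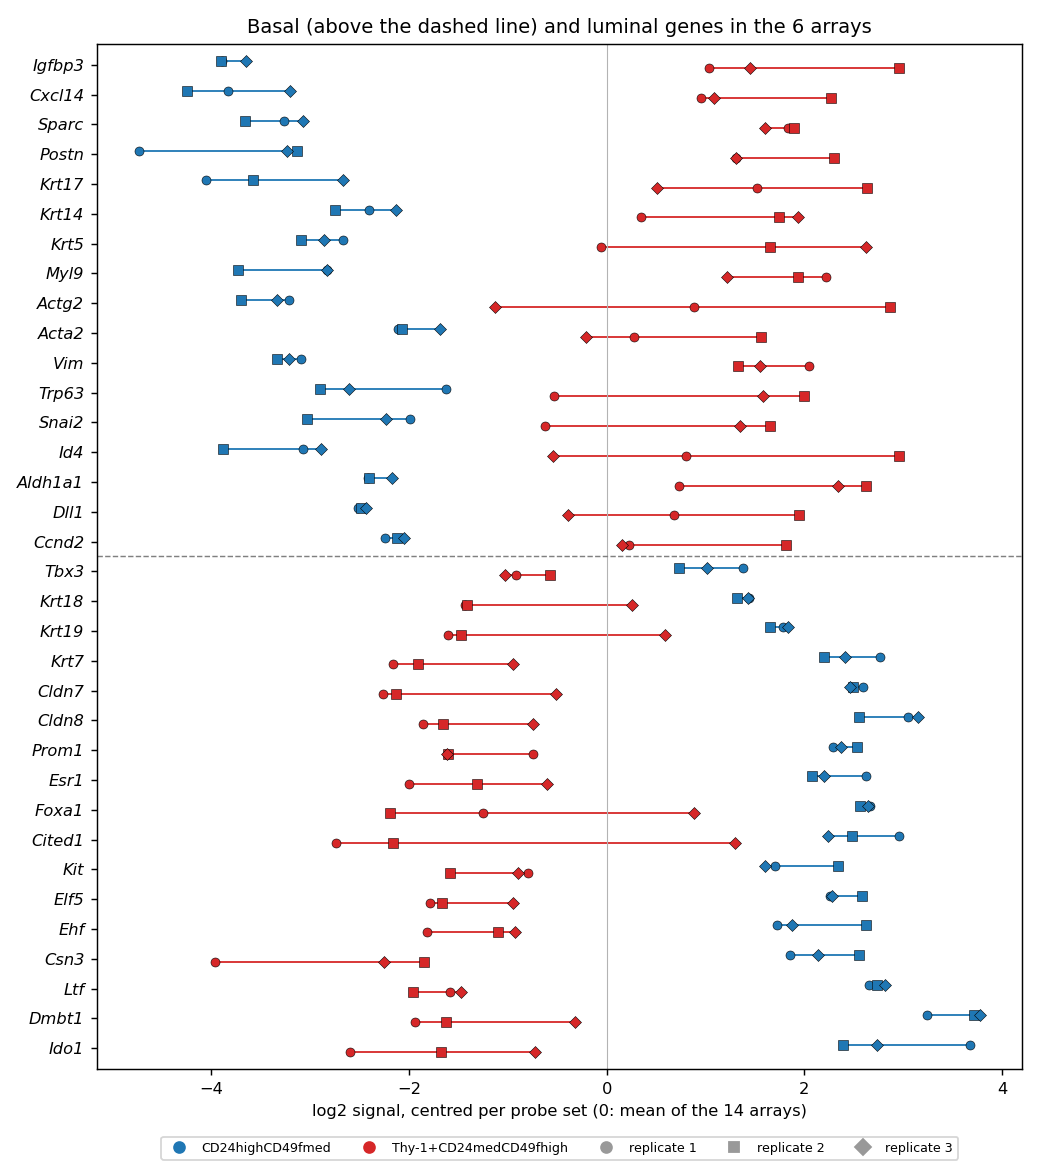
Values of 34 named genes in the 6 arrays, with the log2 signal centred per probe set on the horizontal axis, 1 point per array and a line over the range of each population. Basal genes lie above the dashed line and luminal genes below it. The blue CD24highCD49fmed points are bunched, while the red Thy-1+CD24medCD49fhigh points spread, as for Actg2 from -1.13 to 2.87 and Cited1 from -2.74 to 1.30.

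Transcription factors of the basal layer were lower in CD24highCD49fmed cells for 6 of 15 measured members and higher for 2, with a median of -1.45 (after centring, 8 lower, 0 higher, median -2.10). Of all rows 5.88% were lower and 12.8% higher (12.2% and 3.78% after centring). The share of higher members as deposited was thus near that of the table. Trp63, the p63 gene on which the basal layer depends, was -1.63, -2.90 and -2.61 in luminal and -0.53, 2.00 and 1.58 in basal arrays (difference -3.39, SE 0.67, adjusted p = 0.00562). Snai2, which encodes the E-box-binding repressor Slug, was -1.99, -3.03 and -2.23 against -0.62, 1.65 and 1.35 (difference -3.21, SE 0.64, adjusted p = 0.00584). Thy-1+CD24medCD49fhigh replicate 1 was the lowest basal array for both factors, yet remained above the luminal arrays. Zeb2, another repressor that binds E-boxes, was 4.04, 0.25 and 2.03 in basal arrays and between -1.35 and -1.04 in luminal arrays (difference -3.29, SE 0.76, adjusted p = 0.0127). Id4, an inhibitor of helix-loop-helix factors, had the largest difference of the list (-4.35, SE 0.74, adjusted p = 0.00273).

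The 2 members that went against their list were Sox9 and Tbx3. Tbx3, a T-box factor linked to hormone-sensing cells, was 1.38, 0.73 and 1.01 in CD24highCD49fmed arrays and -0.92, -0.57 and -1.03 in Thy-1+CD24medCD49fhigh arrays. The groups did not overlap and the difference of 1.88 (SE 0.50) passed as deposited (adjusted p = 0.0249) but not after centring (1.23, adjusted p = 0.0643), nor without any 1 of the luminal arrays (adjusted p 0.1 to 0.167). Sox9, a factor of luminal progenitors and of many stem cell compartments, differed by 1.69 (SE 0.50, adjusted p = 0.0338) and by 1.05 after centring (adjusted p = 0.117).

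Matrix genes were lower in CD24highCD49fmed cells for most members. Of 37 listed genes for basement membrane and matrix 30 were measured, 22 were called lower and 1 higher, with a median of -2.36, and after centring 28 were lower and 1 higher, with a median of -3.00. Among all rows 5.88% were lower and 12.8% higher (12.2% and 3.78% after centring). Sparc, a collagen-binding matrix protein, was -3.26, -3.66 and -3.07 in luminal arrays and 1.83, 1.89 and 1.60 in basal arrays (difference -5.10, SE 0.50, adjusted p = 0.000164). Postn, the matricellular protein periostin, was -4.73, -3.13 and -3.23 against 1.31, 2.30 and 1.31 (difference -5.34, SE 0.58, adjusted p = 0.000173). Both genes were high in all 3 Thy-1+ arrays. Col4a1, a network collagen of the basement membrane, differed by -4.18 (SE 0.60, adjusted p = 0.00114), with 1.66, 1.79 and -0.22 in the basal arrays. The fibrillar collagen gene Col3a1 differed by -5.28 (SE 0.70, adjusted p = 0.000751) and was uneven among them, at 2.14, 0.65 and 3.76.

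Laminin alpha chains did not move together. Lama1 (-2.30), Lama3 (-1.73) and Lama4 (-2.04) were lower in CD24highCD49fmed cells and Lama2 (-1.26) had no call, whereas Lama5, the alpha chain of the laminins most widespread in adult epithelial basement membranes, was higher by 2.15 (SE 0.58, adjusted p = 0.0263) and by 1.51 after centring (adjusted p = 0.0472). Lama5 was 1.26, 0.99 and 0.89 in luminal arrays and -1.86, 0.06 and -1.52 in basal arrays, without overlap. It was called in only 1 of the 6 fits that left out an array, the one without Thy-1+CD24medCD49fhigh replicate 2 (2.74, adjusted p = 0.00662).

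Cadherins and junction genes also split between the populations. Among 28 measured integrin and adhesion genes 7 were higher and 4 lower in CD24highCD49fmed cells (3 and 7 after centring). The shares of all rows were 12.8% higher and 5.88% lower (3.78% and 12.2% after centring). Cdh2, or N-cadherin, was lower by 2.95 on the log2 scale in luminal cells, with -2.25, -2.10 and -1.71 against 0.51, 0.90 and 1.39 (SE 0.51, adjusted p = 0.0029). Cdh1, or E-cadherin, was 0.98, 0.82 and 0.96 against -1.45, -0.48 and -0.43, a difference of 1.71 that passed as deposited (SE 0.52, adjusted p = 0.0382) and not after centring (1.06, adjusted p = 0.0989). Itga1, a collagen-binding integrin chain, and Dsc3, a desmosomal cadherin of stratified epithelium, were lower in luminal cells too (-2.86 and -2.63), as was the integrin chain gene Itga9 (-2.37).

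Luminal keratins and apical membrane genes were higher in CD24highCD49fmed cells. Of 21 listed genes 20 were measured, 17 were called higher and 0 lower, with a median of 2.21, against 12.8% of all rows called higher. After centring, 6 were called (Aqp5, Prom1, Krt7, Cldn7, Cldn8 and Tspan1), with a median of 1.56 and 3.78% of all rows called higher. Cldn8 and Cldn7 encode tight junction claudins. Cldn8 was 3.05, 2.55 and 3.15 in luminal arrays and -1.86, -1.66 and -0.75 in basal arrays (difference 4.34, SE 0.53, adjusted p = 0.000471, 3.69 after centring). Cldn7 was 2.59, 2.49 and 2.46 against -2.26, -2.13 and -0.51 (difference 4.15, SE 0.57, adjusted p = 0.000877, 3.50 after centring). Krt7, a simple epithelial keratin, was 2.76, 2.20 and 2.41 against -2.16, -1.91 and -0.95 (difference 4.13, SE 0.53, adjusted p = 0.000631, 3.48 after centring). No basal array came near a luminal one for these 3 genes.

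Krt18 and Krt19, the keratins commonly used to identify luminal cells, gave smaller differences. Krt18 was 1.44, 1.32 and 1.43 in CD24highCD49fmed arrays and -1.43, -1.41 and 0.26 in Thy-1+CD24medCD49fhigh arrays (difference 2.26, SE 0.57, adjusted p = 0.0197). Krt19 was 1.78, 1.65 and 1.83 against -1.61, -1.47 and 0.59 (difference 2.58, SE 0.61, adjusted p = 0.0151). Thy-1+CD24medCD49fhigh replicate 3 was the highest basal array for both. After centring neither passed (1.61, adjusted p = 0.0832, and 1.94, adjusted p = 0.0682). Without CD24highCD49fmed replicate 1, 2 or 3 the adjusted p was 0.122, 0.0749 and 0.0853 for Krt18 and 0.096, 0.0454 and 0.0505 for Krt19. Krt8, the partner of keratin 18, behaved alike (2.11, SE 0.55, adjusted p = 0.0231, and 1.46 after centring, adjusted p = 0.0684).

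Since Snai2 and Zeb2 encode repressors that bind E-boxes, the 250 bases before the listed start of each gene (RefSeq, build GRCm38.p6) were searched for CACCTG on both strands, that is for CACCTG or CAGGTG, which do not overlap each other in any window printed here. At least 1 match stood in the windows of 10 of the 14 luminal keratin and apical genes that had a promoter in the table (71.4%), and of 2 of 14 basal keratin and contractile genes (14.3%). These 2 were Krt5 and Oxtr. Matches stood in 5 of 12 luminal progenitor and alveolar regulators (41.7%) and in 3 of 19 basement membrane and matrix genes (15.8%). The share over 27025 genes with a promoter was 19.4%, and it was 19.6% of 4792 named genes of the array table. It was 27.7% of 629 genes called higher and 18.7% of 278 genes called lower in CD24highCD49fmed cells. These shares were not tested and were not matched for base composition, and a match is a stretch of letters, not a bound site. The windows of 3 luminal keratin genes and of Elf5, the luminal factor described next, are shown because they carry matches (in capitals). The window of Myl9 is shown as a basal contrast, with its match to the CArG box of muscle genes in capitals, which 1.62% of genes hold and which 2 of 14 basal keratin and contractile genes held. They lie at chr15:101412153-101412402 (Krt7, plus strand), chr15:102004343-102004592 (Krt8, minus strand), chr15:102027966-102028215 (Krt18, plus strand), chr2:103411848-103412097 (Elf5, plus strand, 1 of its 2 listed starts) and chr2:156775214-156775463 (Myl9, plus strand), and are written from 5′ to 3′ on the strand of the gene.
Krt7: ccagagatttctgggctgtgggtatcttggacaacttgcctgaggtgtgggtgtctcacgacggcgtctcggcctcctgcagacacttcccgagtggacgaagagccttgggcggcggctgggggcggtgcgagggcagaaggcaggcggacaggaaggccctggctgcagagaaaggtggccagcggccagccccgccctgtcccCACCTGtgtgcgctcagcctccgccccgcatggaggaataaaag
Krt8: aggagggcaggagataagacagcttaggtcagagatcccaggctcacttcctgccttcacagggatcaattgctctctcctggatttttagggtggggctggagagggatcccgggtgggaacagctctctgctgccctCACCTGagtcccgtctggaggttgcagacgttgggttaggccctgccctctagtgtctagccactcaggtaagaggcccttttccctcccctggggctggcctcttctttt
Krt18: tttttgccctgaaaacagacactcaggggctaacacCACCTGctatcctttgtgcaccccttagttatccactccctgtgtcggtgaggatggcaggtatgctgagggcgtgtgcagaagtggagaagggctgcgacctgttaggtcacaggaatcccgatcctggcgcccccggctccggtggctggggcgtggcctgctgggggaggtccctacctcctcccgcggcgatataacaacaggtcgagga
Elf5: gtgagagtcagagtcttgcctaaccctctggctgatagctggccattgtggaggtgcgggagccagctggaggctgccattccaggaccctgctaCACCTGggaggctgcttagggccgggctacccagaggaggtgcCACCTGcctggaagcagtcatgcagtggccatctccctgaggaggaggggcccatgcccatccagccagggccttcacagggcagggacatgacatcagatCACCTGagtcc
Myl9: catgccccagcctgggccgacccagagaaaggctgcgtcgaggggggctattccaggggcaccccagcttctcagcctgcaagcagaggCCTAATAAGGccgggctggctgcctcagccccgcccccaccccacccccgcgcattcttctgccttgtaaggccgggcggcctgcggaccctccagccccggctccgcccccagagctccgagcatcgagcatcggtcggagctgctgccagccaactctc
Counted from the listed start, the matches began at -44 in Krt7, -111 in Krt8, -214 in Krt18, at -155, -112 and -11 in Elf5, and at -161 in Myl9.

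Regulators of luminal progenitors and alveoli were higher in CD24highCD49fmed cells for 8 of 19 measured members and lower for 0, with a median of 1.17, and after centring for 6 and 2, with a median of 0.52. The shares of all rows were 12.8% higher and 5.88% lower, and 3.78% and 12.2% after centring. After centring the share of lower members was near that of the table. Elf5, an ETS factor of the alveolar lineage, was 2.26, 2.58 and 2.28 in luminal arrays and -1.79, -1.67 and -0.95 in basal arrays (difference 3.84, SE 0.51, adjusted p = 0.000712, 3.19 after centring). Ehf, another epithelial ETS factor, was 1.72, 2.62 and 1.87 against -1.82, -1.10 and -0.93 (difference 3.35, SE 0.53, adjusted p = 0.00162, 2.70 after centring). Neither gene overlapped between the groups. The cytokine gene Lif (2.92) and the lipopolysaccharide co-receptor gene Cd14 (2.63) were also higher under both scalings. The 2 genes that were called lower only after centring were Itgb3, whose product CD61 has been used to sort luminal progenitors (-1.51 as deposited), and the factor Tfap2c (-1.17 as deposited).

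Hormone-sensing genes were higher as well, 9 of 12 measured as deposited and 4 after centring, with medians of 2.33 and 1.68 and 0 lower. Among all rows 12.8% were higher as deposited and 3.78% after centring. Esr1, the estrogen receptor, was 2.62, 2.08 and 2.20 in CD24highCD49fmed arrays and -2.00, -1.31 and -0.60 in Thy-1+CD24medCD49fhigh arrays (difference 3.60, SE 0.54, adjusted p = 0.00139, 2.96 after centring). Foxa1, the factor that opens chromatin for that receptor, was 2.66, 2.56 and 2.64 against -1.25, -2.19 and 0.88 (difference 3.47, SE 0.68, adjusted p = 0.00559, 2.82 after centring). Prom1, whose product CD133 marks hormone-sensing luminal cells, was 2.29, 2.53 and 2.37 against -0.75, -1.61 and -1.62 (difference 3.72, SE 0.51, adjusted p = 0.000865, 3.08 after centring). All luminal arrays lay above all basal arrays for these genes, and Thy-1+CD24medCD49fhigh replicate 3 was the highest basal array for Esr1 and Foxa1. The CD24highCD49fmed arrays thus held both the ETS factor genes Elf5 and Ehf and the estrogen receptor gene Esr1 above the basal arrays. Cited1, a transcriptional coregulator, differed by 3.76 (SE 0.83, adjusted p = 0.0105) but not after centring (3.11, adjusted p = 0.0529), with 1.30 in Thy-1+CD24medCD49fhigh replicate 3 and -2.74 and -2.16 in replicates 1 and 2.

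Of the milk and milk fat globule genes 4 of 11 measured were higher under both scalings and 0 lower, with a median of 0.98. Among all rows 3.78% were higher under both scalings and 12.8% as deposited. Csn3, which encodes kappa-casein, was 1.85, 2.55 and 2.14 in luminal arrays and -3.96, -1.85 and -2.25 in basal arrays (difference 4.87, SE 0.60, adjusted p = 0.00049, 4.22 after centring). Wfdc18, a protease inhibitor gene linked to secretory differentiation, differed by 3.78, Muc15 by 3.13 and the milk fat globule gene Btn1a1 by 2.34. The other caseins measured, Csn2 (0.63) and Csn1s2a (0.80), were not called. Csn3 was thus the only casein gene called of these 3.

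Secreted defence genes held the largest rise of any gene with 1 symbol. Of 18 measured, 7 were higher and 2 lower, and after centring 6 and 5. The shares of all rows were 12.8% and 5.88%, and 3.78% and 12.2% after centring. Dmbt1, a mucosal scavenger glycoprotein, was 3.24, 3.72 and 3.78 in CD24highCD49fmed arrays and -1.94, -1.63 and -0.32 in Thy-1+CD24medCD49fhigh arrays (difference 4.88, SE 0.56, adjusted p = 0.000258, 4.23 after centring). Ltf, the iron-binding protein lactoferrin, was 2.65, 2.73 and 2.82 against -1.58, -1.96 and -1.47 (difference 4.41, SE 0.49, adjusted p = 0.000204, 3.76 after centring). Ido1, a tryptophan-degrading enzyme, was 3.67, 2.39 and 2.73 against -2.60, -1.68 and -0.72 (difference 4.60, SE 0.60, adjusted p = 0.000673, 3.95 after centring). The 3 genes were high in all luminal and low in all basal arrays. In contrast, Chil1, a chitinase-like lectin gene, and Slpi, a leukocyte protease inhibitor gene, were lower in CD24highCD49fmed cells (-2.78, adjusted p = 0.00867, and -2.05, adjusted p = 0.0155). The remaining genes among the 10 largest rises were Bex1 (4.65), Tlcd4 (4.61), the cysteine dioxygenase gene Cdo1 (4.55), Cldn8, Tmc4 (4.27) and Cldn7, and each was called under both scalings. Among the 10 largest falls, those not described elsewhere were the sodium channel gene Scn7a (-5.35), the transporter gene Abca8a (-5.32) and the matrilin gene Matn2 (-4.90).

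The retinoid enzymes Aldh1a1 and Aldh1a3 ran in opposite directions. Aldh1a3 was 1.42, 1.65 and 1.33 in CD24highCD49fmed arrays and -1.10, -1.50 and -1.05 in Thy-1+CD24medCD49fhigh arrays (difference 2.68, SE 0.49, adjusted p = 0.00407, 2.03 after centring, adjusted p = 0.0183). Its 3 probe sets ranged from 1.09 to 3.99, all in the same direction. Over the 12 measured retinoid-linked genes 1 was higher and 2 lower, with a median of 0.14 against 0.78 over all rows. The shares of all rows were 12.8% higher and 5.88% lower (3.78% and 12.2% after centring). After centring 1 was higher and 3 lower, with a median of -0.51 against 0.13, the added one being Cmklr1, a chemerin receptor (-1.06 as deposited).

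Genes proposed as mammary stem cell markers were lower in CD24highCD49fmed cells for 8 of 19 measured and higher for 2 (after centring 10 and 0), with medians of -1.51 and -2.16. Several of them are also basal lineage genes or the gate itself (Trp63, Snai2, Thy1). As deposited, the list median was -0.62, 0.49 and -0.39 in Thy-1+CD24medCD49fhigh replicates 1 to 3 and -1.11 to -0.83 in CD24highCD49fmed arrays. It was 0.78, 0.39 and 0.21 in Thy-1-CD24medCD49fhigh and 0.79, 0.81 and 0.46 in CD24medCD49fmed arrays. The highest arrays for this list were thus not those of the Thy-1+ cells. Among all rows 5.88% were lower and 12.8% higher (12.2% and 3.78% after centring). The share of higher members as deposited was thus near that of the table. Procr, the protein C receptor gene, was -1.18, -1.34 and -1.76 in luminal arrays and 2.33, 0.48 and 0.05 in basal arrays. The groups did not overlap, the difference was -2.38 (SE 0.62, adjusted p = 0.0226, -3.03 after centring), and the call was lost without CD24highCD49fmed replicate 1, 2 or 3 (adjusted p = 0.104, 0.0682 and 0.0962). Dll1, a Notch ligand, was -2.52, -2.49 and -2.43 against 0.68, 1.95 and -0.39 (difference -3.23, SE 0.60, adjusted p = 0.00437). Lgr5, an R-spondin receptor and Wnt target, did not follow them. It was -1.98, -1.97 and -1.98 in luminal arrays and -1.43, 0.72 and -1.38 in basal arrays, where only replicate 2 was above 0, and its difference of -1.28 (SE 0.61) was not called as deposited (adjusted p = 0.12) but was after centring (-1.93, adjusted p = 0.0279). Tspan8 went against the list (2.16, SE 0.59, adjusted p = 0.0271), and not after centring (1.51, adjusted p = 0.0551).

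**Figure D3:**
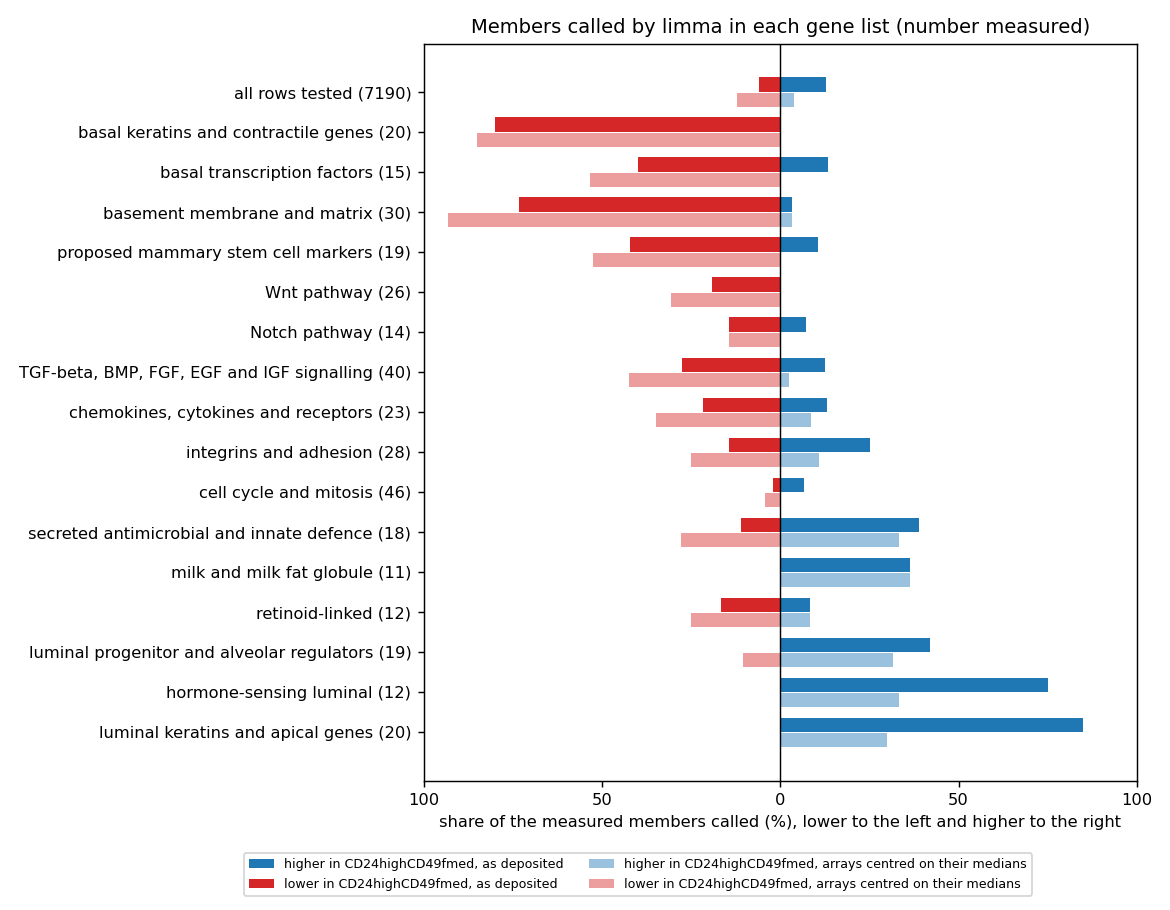
Share of measured members called lower (left) or higher (right) in CD24highCD49fmed cells by limma for 16 gene lists and for all 7190 rows, as deposited (full colour) and with each array centred on its median (pale), with the number measured in brackets. Basal and matrix lists extend left, with 16 of 20 and 22 of 30 members, and luminal keratins extend right, with 17 of 20 as deposited and 6 of 20 after centring.

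Of 40 measured genes of TGF-beta, BMP, FGF, EGF and IGF signalling 11 were lower and 5 higher in CD24highCD49fmed cells (17 and 1 after centring), with a median of -0.88. Over all rows 5.88% were lower and 12.8% higher (12.2% and 3.78% after centring), so the share of higher calls was near that of the table. Igfbp3, which binds insulin-like growth factors, had the largest fall of all rows, at -3.89, -3.90 and -3.65 against 1.03, 2.96 and 1.45 (difference -5.63, SE 0.58, adjusted p = 0.000164, -6.27 after centring). Fst, which encodes the activin antagonist follistatin, was -3.26, -3.17 and -2.67 against 0.47, 2.41 and -0.90 (difference -3.70, SE 0.71, adjusted p = 0.00496). Inhbb, which encodes an activin subunit, ran opposite to follistatin, at 1.66, 1.53 and 1.37 against -1.55, -1.32 and -0.89 (difference 2.77, SE 0.50, adjusted p = 0.0036, 2.13 after centring). Its 2 probe sets differed by 0.70 and 4.85. Tgfbr3, the TGF-beta coreceptor, and Tgfbi, a TGF-beta-induced matrix protein gene, were lower (-3.51 and -3.37). The EGF family ligand gene Btc and the receptor gene Erbb3 were higher as deposited (1.95 and 1.90) and not called after centring (1.30, adjusted p = 0.0672, and 1.26, adjusted p = 0.232).

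In the Wnt list 5 of 26 measured genes were lower and 0 higher (8 and 0 after centring), with a median of -0.48. Of all rows 5.88% were lower and 12.8% higher (12.2% and 3.78% after centring). Of the 5 called genes, Wif1, Nkd2 and Sfrp1 encode inhibitors of Wnt signalling and Wnt10a and Wnt6 encode ligands. Wif1 was -3.23, -2.75 and -2.85 in luminal arrays and 0.42, 2.47 and -1.04 in basal arrays, without overlap (difference -3.56, SE 0.73, adjusted p = 0.007). In the Notch list the ligand genes Dll1 and Jag2 were lower (-3.23 and -2.10). Dtx4, a Deltex ubiquitin ligase gene, was higher (1.51, adjusted p = 0.0473, and 0.86 after centring, adjusted p = 0.168). The other 11 of 14 measured members had no call. Of all rows 18.7% were called in either direction, so the share of calls in this list was near that of the table.

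Of 23 measured genes for chemokines, cytokines and receptors 5 were lower and 3 higher in CD24highCD49fmed cells (8 and 2 after centring), where 5.88% of all rows were lower and 12.8% higher, so the share of higher calls was again near that of the table. Cxcl14, a chemokine of resting epithelium, was -3.83, -4.24 and -3.20 against 0.95, 2.27 and 1.09 (difference -5.19, SE 0.56, adjusted p = 0.000173). Cxcl12, the ligand of CXCR4, was -2.50, -2.38 and -2.20 against 0.66, 1.51 and -0.14 (difference -3.04, SE 0.55, adjusted p = 0.00371). Cxcl15, a chemokine of mucosal epithelium, was 2.91, 2.41 and 2.26 against -1.54, -1.70 and -0.24 (difference 3.68, SE 0.55, adjusted p = 0.0014, 3.03 after centring). Basal arrays were thus above luminal arrays for the first and second gene and below them for the third.

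Of 46 measured cell cycle genes 3 were higher and 1 lower, with a median of 0.61 (0 and 2 after centring, median -0.03). Both shares lay below those of all rows, 12.8% higher and 5.88% lower (3.78% and 12.2% after centring). The median over all rows was 0.78, and 0.13 after centring. The D-type cyclins, which carry cells into S phase, differed in opposite directions. Ccnd2 was -2.24, -2.12 and -2.05 in luminal arrays and 0.23, 1.81 and 0.15 in basal arrays (difference -2.87, SE 0.56, adjusted p = 0.00559), and 6 of its 7 probe sets passed. Ccnd1 was 0.99, 1.24 and 1.08 against -0.42, -1.05 and -0.21 (difference 1.67, SE 0.50, adjusted p = 0.0382), and did not pass after centring (1.02, adjusted p = 0.168). Neither cyclin overlapped between the groups. The mitosis genes Mki67 and Top2a overlapped between the groups. Mki67 differed by -0.35 (SE 0.54, adjusted p = 0.607) and Top2a by 0.32 (SE 0.52, adjusted p = 0.626). Cdkn1a, the p21 inhibitor gene, was 0.06, -1.09 and -0.97 in luminal and 0.12, -0.66 and 1.18 in basal arrays, with overlap and no call (-0.88, SE 0.59, adjusted p = 0.239).

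Of 10 measured interferon and antigen presentation genes Psmb8 (2.41), Psmb9 (1.85) and Usp18 (1.82) were higher and Ifit3 (-1.90) lower, and only Psmb8, an immunoproteasome subunit gene, and Ifit3 of these were called after centring as well (1.76 and -2.55). These are 4 calls of 10, where 18.7% of all rows were called in either direction. Thy-1+CD24medCD49fhigh replicate 1 stood apart for this list, with an array median of 1.38 against -0.10 and -0.30 in replicates 2 and 3 and -0.35 to -0.23 in the luminal arrays, and the part of that array in these calls was not tested. Of 16 measured genes of the dissociation response 2 were lower, Egr2 (-2.85) and Ccn2 (-2.54), and 0 higher, and the heat shock and Fos genes measured had no call. Among all rows 5.88% were lower and 12.8% higher.

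Markers of cells outside the epithelium were uneven among the Thy-1+CD24medCD49fhigh arrays. Over 22 measured endothelial genes the array median was 2.78 in replicate 1 and 0.01 and -0.09 in replicates 2 and 3, against -1.05 to -0.83 in CD24highCD49fmed arrays. Tek, the angiopoietin receptor gene of endothelium, was 4.45, 1.27 and -0.82 in the basal arrays, and Rgs5, a pericyte gene, was 4.39, 0.78 and 0.13. Pecam1, the gene of the CD31 antigen stained in the sort, was 3.08, 0.04 and -0.43. Replicate 1 therefore stood apart for vascular genes, including that of a stained antigen. It was also the highest Thy-1+CD24medCD49fhigh array for Procr, and the part of vascular cells in the difference of Procr was not tested. CD24medCD49fmed replicate 1 was also high for the endothelial list (2.43). Of these 22 genes 5 were called lower in CD24highCD49fmed cells, and of 9 pericyte genes 2 (6 and 3 after centring). Under both scalings 3 of the endothelial and 2 of the pericyte genes were called lower. Of all rows 5.88% were lower as deposited, 12.2% after centring and 5.74% under both.

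Over 11 measured genes of cornified keratinocytes the median was 4.24 in replicate 3, -0.97 and 0.31 in replicates 1 and 2, and -1.46 to -1.06 in luminal arrays. Krtdap, a gene of differentiating epidermis, was -0.79, 0.85 and 4.99, and Serpinb2 was -0.97, -0.36 and 5.36. The list median was also 2.10 in CD24medCD49fmed replicates 2 and 3 and 1.39 in Thy-1-CD24medCD49fhigh replicate 3. The list had 2 calls, both lower in CD24highCD49fmed cells, and 2 after centring. Among all rows 5.88% were lower, and 12.2% after centring. Thy-1+CD24medCD49fhigh replicate 3 was also the highest array of its group for Krt5 (-0.06, 1.65 and 2.62) and Krt14.

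Fibroblast genes were lower in CD24highCD49fmed cells for 9 of 13 measured and higher for 1 (Col6a3), and Schwann cell genes for 7 of 12 and higher for 1 (Erbb3). After centring 10 and 8 were lower and 0 higher. Among all rows 5.88% were lower and 12.8% higher (12.2% and 3.78% after centring). The list medians in Thy-1+CD24medCD49fhigh replicates 1 to 3 were 1.16, 0.17 and 1.25 for fibroblasts and 1.17, 0.53 and 1.38 for Schwann cells. In luminal arrays they were -1.44 to -1.28 and -1.11 to -0.88. Cdh19, a cadherin of Schwann cells, was 4.10, 0.53 and 3.96, and Col1a1 was 2.71, -0.45 and 2.89, the same 2 arrays in which Thy1 and Rarres2 were high. Without replicate 2, 11 fibroblast and 8 Schwann cell genes were called lower, and lower calls over all 7190 rows rose from 423 to 824. Myeloid genes gave 1 call of 8, Cd14, which rose. Adipocyte genes gave 1 lower call of 5, Fabp4, which is also on the endothelial list, and of 2 lymphoid genes, Ptprc (-0.82) and Ms4a1 (0.37, -0.28 after centring), 0 were called. Several of these genes are shared with basal epithelium or with the matrix list, and the part of such cells in the differences of Thy1, Rarres2, collagens or Zeb2 was not tested. The study's methods also list an antibody to the stromal antigen CD140a, which the labels of these arrays do not name. Its gene Pdgfra was 0.16, 0.21 and 1.18 in the basal arrays and -0.99, -0.71 and -0.76 in the luminal arrays (difference -1.34, adjusted p = 0.0737, and -1.98 after centring, adjusted p = 0.0241). On the lineage lists, 12 of 12 basal epithelial markers were called lower and 11 of 13 luminal markers higher in CD24highCD49fmed cells (12 and 5 after centring).

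**Figure D4:**
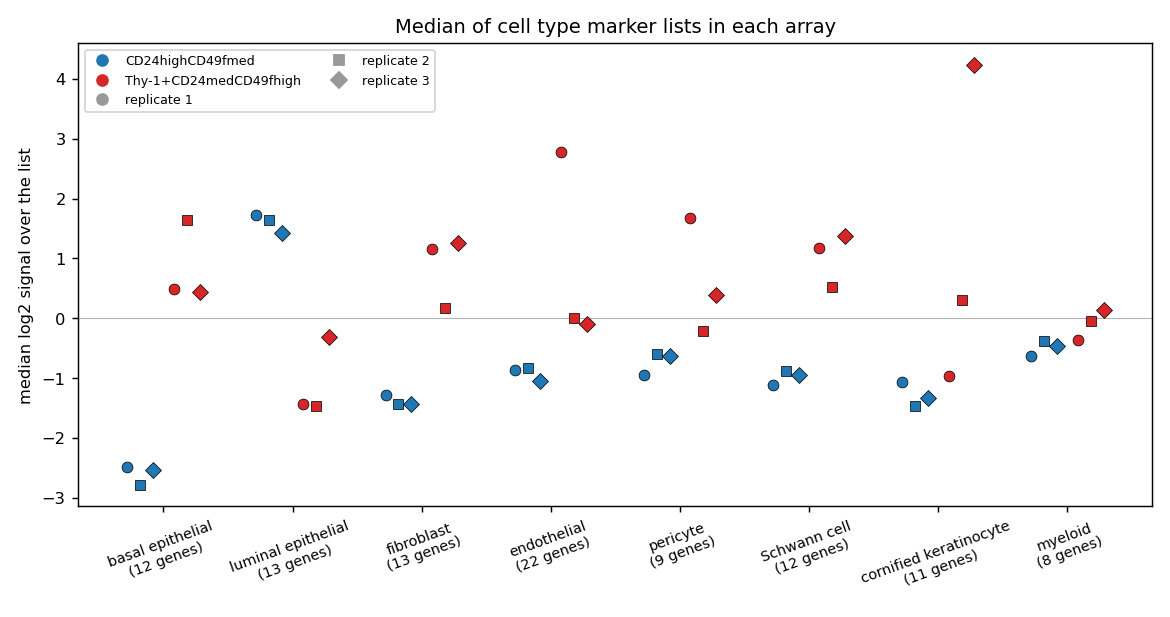
Median log2 signal, centred per probe set, over the measured genes of 8 cell type lists in each of the 6 arrays, with the replicate shown by the symbol. CD24highCD49fmed arrays cluster for every list, while Thy-1+CD24medCD49fhigh replicate 1 is high for endothelial genes (2.78) and replicate 3 for cornified keratinocyte genes (4.24).

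The other populations show what these differences share with the rest of each layer. The comparisons below come from 1 limma fit of the 14 arrays unless a fit of the 9 basal or the 5 luminal arrays is named, and the luminal and basal contrasts share their arrays with the comparison above. The CD24medCD49fmed label is taken here for the gate that the study's text writes as CD24lowCD49fmed and treats as basal myoepithelial cells, since the spelling differs and the rest of the gates match. Against the mean of Thy-1-CD24medCD49fhigh and CD24medCD49fmed cells, Thy-1+CD24medCD49fhigh cells had 8 rows higher (0.111%) and 4 lower (0.0556%), and 0 rows were called when the fit used the 9 basal arrays or median-centred arrays. Thy1 was -0.77, -0.10 and -0.36 in Thy-1-CD24medCD49fhigh arrays and 0.73, -0.46 and 0.12 in CD24medCD49fmed arrays. Thy-1+CD24medCD49fhigh cells were higher by 1.79 (SE 0.49), which did not pass (adjusted p = 0.125, and 0.000289 without their replicate 2). Rarres2 gave 1.48 (SE 0.39, adjusted p = 0.125, and 0.000187 without replicate 2). Aldh1a1 was 1.03, 0.44 and 0.95 in Thy-1-CD24medCD49fhigh and 0.71, 1.48 and 2.01 in CD24medCD49fmed arrays, so all 3 basal populations held it above luminal cells, and the Thy-1+ cells did not differ from the others by the test (0.79, SE 0.41, adjusted p = 0.199). Krt14 (-0.07, adjusted p = 0.925), Procr (0.14, adjusted p = 0.842) and Igfbp3 (-0.52, adjusted p = 0.354) gave no call either. Of the genes described above, those called were Cdh19 (3.38) and Abca8a (3.19) higher and Lgr5 (-2.52) and Bex1 (-2.79) lower in Thy-1+CD24medCD49fhigh cells.

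Several genes of luminal progenitors had higher values in the other luminal gate. Kit was 3.24 and 3.30 in the 2 CD24medCD49f-/low arrays, above all 3 CD24highCD49fmed arrays (-1.39, SE 0.44), and Elf5 was 3.54 and 3.39 (-1.09, SE 0.45). Aldh1a3 (-1.62, SE 0.42), Lif (-1.79, SE 0.44) and Cd14 (-1.05, SE 0.44) ran the same way. Over 8 measured myeloid genes, which include Cd14, the array median was 1.99 and 0.24 in CD24medCD49f-/low replicates 1 and 2 and -0.63 to -0.38 in CD24highCD49fmed arrays, and the part of such cells in these differences was not tested. None of the 5 passed in the fit of 14 arrays (adjusted p 0.234 to 0.912), whereas in a fit of the 5 luminal arrays all 5 did (adjusted p = 0.0222 for Kit, 0.0219 for Elf5, 0.0113 for Aldh1a3, 0.0117 for Lif and 0.0397 for Cd14). The hormone-sensing genes leaned the other way, with Esr1 at 1.23 and 1.61 in CD24medCD49f-/low arrays and Foxa1 at 1.12 and 1.83, and of these Foxa1 passed in the 5-array fit (1.14 higher in CD24highCD49fmed cells, adjusted p = 0.0311, and 0.9996 with 14 arrays) and Esr1 did not (0.88, adjusted p = 0.0592). These calls rest on the fit of 5 arrays, with 2 arrays in one group, which was not repeated with centred arrays. Centring took the calls of the 14-array fit from 4 to 0. The cells are therefore called here by their gate and not by a progenitor name. The 14-array fit called 3 rows higher (0.0417%) and 1 lower (0.0139%) in CD24highCD49fmed than in CD24medCD49f-/low cells, the mitosis genes Mki67 (2.80), Pbk (2.99) and Top2a (2.64) and the calprotectin subunit gene S100a9 (-3.36), and the 5-array fit called 217 (3.02%) higher and 185 (2.57%) lower.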

How the data were processed

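RNA of 5 sorted mammary populations was measured on 14 Affymetrix mouse arrays, of which 6 entered the main comparison. The authors deposited log2 values: per their methods, arrays were normalized by robust multichip average (RMA), probe sets were filtered for signal and for a 4-fold range between arrays, and each probe set was centred on its mean. The submitters' notes also name GCRMA. Tool versions: not given in the sources used here. Across the deposited values the smallest range of a row was 2.0, so genes that varied less are not among the 9645 probe sets, and every list count refers to members that passed that filter. Absolute levels and signal over background cannot be read from centred values, and the number of arrays limits the precision.

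Probe sets with 1 symbol in GEO's platform annotation (8499) were averaged to 6044 genes, and 199 with several symbols and 947 with none stayed single rows, giving 7190. Of the 9645, 8482 had a gene ID in the RefSeq table, and 0 symbols changed. Two-sided limma 3.58.1 tests (lmFit, eBayes, R 4.3.3) used Benjamini-Hochberg adjustment over all rows and a threshold of 0.05, on the 6 arrays without covariates. The 2 further contrasts used all 14 arrays. The members, gene lists and the rule for naming genes were chosen with earlier results of these data known. Named were the 4 markers, genes the study discusses, the 10 largest rises and falls of genes with 1 symbol, the 4 most changed called members of each pathway list with up to 3 that went against it, and the 3 most changed of each cell type list. Other list members were named after their values were seen. Erythroid and skeletal muscle lists had 0 measured genes. Alternatives were a fit of 14 arrays, array weights, a block for replicate number, single probe sets, median centring, quantile normalization, a minimum log2 difference of 1, rank products after the study's methods (100 permutations, p under 0.01, no adjustment) and leaving out each array. Scripts were tested on simulated data. With the spread of the 2 groups, limma recovered 8 and 6 of 50 rows set to a log2 difference of -1.58 and 1.58. It recovered 32 and 34 of 50 at -3 and 3, and it called 12 unchanged rows. Only 50 of 7190 rows were changed at each size, whereas 1342 rows were called in the data. The adjustment thus acts differently there, and these rates need not hold for the data. A gene without a call may still differ. Python 3.11.15 (numpy 2.4.6, pandas 2.3.3) and matplotlib 3.10.9 made the tables and plots.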

Additional observations from a re-analysis of the deposited data

How the results depend on the processing

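The number of calls depended on scaling and on the spread allowed. Against 919 higher and 423 lower rows, a fit of all 14 arrays called 2550 and 989, array weights 2022 and 682, median centring 272 and 880, quantile normalization 633 and 909, and rank products at an unadjusted p under 0.01 225 and 306. Median centring without Thy-1+CD24medCD49fhigh replicate 2, chosen after seeing the data, gave 700 and 1413. Leaving out 1 array gave 98 to 2924 higher and 91 to 824 lower rows, the fewest without CD24highCD49fmed replicate 1 and the most without Thy-1+CD24medCD49fhigh replicate 2. The cause was not tested, beyond fewer arrays in these fits.

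For Thy-1+CD24medCD49fhigh against the mean of the 2 other basal populations, 12 calls became 0 with the basal arrays alone and 0 with centred arrays, and 0 to 3367 when 1 array was left out, the most without Thy-1+CD24medCD49fhigh replicate 2 and 7 without CD24medCD49fmed replicate 1. For CD24highCD49fmed against CD24medCD49f-/low, 4 calls became 402 with the 5 luminal arrays alone, 0 with centred arrays, and 0 to 3 when 1 array was left out.

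Of 106 genes named by the rule, 16 lost and 2 gained their call on centring, 43 lost it without CD24highCD49fmed replicate 1, 26 each without replicates 2 and 3, 11 each without Thy-1+CD24medCD49fhigh replicates 1 and 3, and 3 without replicate 2. The lymphoid gene Ms4a1, never called, changed sign from 0.37 to -0.17 with array weights and with quantile normalization, -0.28 with centring and -0.25 with centring without Thy-1+CD24medCD49fhigh replicate 2, and ranged from -0.59 without Thy-1+CD24medCD49fhigh replicate 1 to 1.06 when 1 array was left out.

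Between CD24highCD49fmed and Thy-1+CD24medCD49fhigh, deviations of same-numbered arrays from their group means correlated at 0.032, 0.038 and -0.029. These values show no pairing of the 2 groups by replicate number. In Thy-1+CD24medCD49fhigh, Thy-1-CD24medCD49fhigh and CD24medCD49fmed, endothelial medians were 2.78, 0.56 and 2.43 in replicate 1 and -0.09, -0.78 and -0.70 in replicate 3. Cornified keratinocyte medians were -0.97, -1.35 and -1.44 against 4.24, 1.39 and 2.10. Other lists were not compared in this way, and a pairing among basal arrays was not tested. With the replicate block, 1204 rows were higher and 594 lower, 31 rows were called in the basal contrast and 5 in the luminal one, and 1 of the 106 genes lost its call and 4 gained one. No CD24highCD49fmed array correlated best with the Thy-1+CD24medCD49fhigh array of its own number.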
